A study of Mus musculus with 6 samples.

Results

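A set of 8 genes of the red blood cell lineage, of 17097 genes measured, was followed in sorted pro-B cells with and without HDAC7. They are Gata1, Klf1, Epor, Tfrc, Alas2, Hba-a1, Slc4a1 and Car2, and they were listed by their role in red cells, with earlier results of these data known. Each was read from the probe sets that the platform annotation gives that single symbol, 13 of 45037 in all, and the brightest probe set over the 6 arrays stands for the gene. There were 3 arrays of pro-B cells labelled HDAC7 deficient and 3 arrays of wild-type pro-B cells, described as biological triplicates. Pro-B cells are an early stage of B cell development in bone marrow. All samples were sorted in the same way, as cells positive for B220 and CD43 and negative for IgM. The deletion of HDAC7 is described as conditional; the Cre line, the allele of the wild-type mice, the age of the mice and any pooling of animals are not stated in the labels. HDAC7, a histone deacetylase of class IIa, acts with transcription factors as a repressor, and red cell genes are among the lineage programmes that pro-B cells do not normally use.

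Red cells develop from progenitors shared with megakaryocytes. GATA1 and KLF1 are transcription factors that switch on most of the red cell programme, including globin and heme genes, and the erythropoietin receptor EPOR carries the survival signal. Iron enters through the transferrin receptor, encoded by Tfrc, and is built into heme, whose first step in red cell precursors is catalysed by ALAS2. Hemoglobin is assembled from alpha chains, such as that of Hba-a1, and beta chains. The anion exchanger band 3 (Slc4a1) and carbonic anhydrase II (Car2) serve carbon dioxide transport. Tfrc and Car2 are not confined to red cells: dividing cells in general carry the transferrin receptor, and osteoclasts and other tissues use carbonic anhydrase II.

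Windows of 250 bases upstream of the RefSeq transcription start (build GRCm38.p6) are shown for 5 of the genes, because 4 of them divided the arrays in the same way and the other, Hba-a1, did not. Capitals mark matches, on either strand, to the GATA letters AGATAA or TGATAA or to the CACC letters CCNCNCCC, the kinds of letters that GATA and KLF proteins are known to recognise.
Gata1, chrX:7967911-7968160, minus strand: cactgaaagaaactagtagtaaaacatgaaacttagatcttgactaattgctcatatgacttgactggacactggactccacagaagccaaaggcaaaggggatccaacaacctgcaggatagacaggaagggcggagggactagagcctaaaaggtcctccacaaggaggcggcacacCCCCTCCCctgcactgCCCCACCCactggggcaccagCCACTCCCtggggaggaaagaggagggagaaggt
Klf1, chr8:84901732-84901981, plus strand: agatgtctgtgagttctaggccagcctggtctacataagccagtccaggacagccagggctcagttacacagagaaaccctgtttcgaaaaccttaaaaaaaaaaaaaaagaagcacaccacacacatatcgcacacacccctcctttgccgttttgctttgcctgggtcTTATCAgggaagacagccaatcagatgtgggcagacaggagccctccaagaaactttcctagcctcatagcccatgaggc
Epor, chr9:21963577-21963826, minus strand: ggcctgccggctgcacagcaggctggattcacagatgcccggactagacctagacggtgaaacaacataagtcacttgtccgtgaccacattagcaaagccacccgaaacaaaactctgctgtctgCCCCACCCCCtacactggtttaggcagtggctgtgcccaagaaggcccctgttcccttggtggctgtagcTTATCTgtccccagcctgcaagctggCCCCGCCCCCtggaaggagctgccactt
Alas2, chrX:150547167-150547416, plus strand: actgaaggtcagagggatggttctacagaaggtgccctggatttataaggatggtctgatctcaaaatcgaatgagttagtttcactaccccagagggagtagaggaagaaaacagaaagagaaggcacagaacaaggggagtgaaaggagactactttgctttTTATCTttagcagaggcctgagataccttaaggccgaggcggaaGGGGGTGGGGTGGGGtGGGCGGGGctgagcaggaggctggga
Hba-a1, chr11:32283422-32283671, plus strand: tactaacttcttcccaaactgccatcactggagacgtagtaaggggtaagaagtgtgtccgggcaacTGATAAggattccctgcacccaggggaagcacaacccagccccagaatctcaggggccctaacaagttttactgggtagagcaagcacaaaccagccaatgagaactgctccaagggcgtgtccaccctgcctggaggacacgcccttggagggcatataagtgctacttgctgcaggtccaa
GATA letters stand 80 bases upstream of the start in Klf1, 54 in Epor, 86 in Alas2 and 183 in Hba-a1. They were not found in the windows of Gata1 or Tfrc, and 16.6% of 32851 windows of this length held them. CACC letters were more common, in 45.9% of windows, and matched 3 times in Gata1, 4 times each in Epor and Alas2, and not in Klf1 or Hba-a1; some of these matches overlap one another. Slc4a1 and Car2 had no window in the table used. Matches are descriptions of these letters and not evidence of binding.

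The arrays themselves differed in ways that touch these genes. Wild-type replicate 3 had an interquartile range of 1.72 (log2) against 2.27 to 2.93 on the other 5 arrays, and its correlations with them ran from 0.70 to 0.82. It read bright genes low and dim genes high: it was the lowest of the 6 arrays for 37.8% of all genes and the highest for 45.8%. Among the 4275 genes with a mean above 7.92, which include Tfrc, Hba-a1 and Car2, it was the lowest array for 85%. Among the 4274 genes with a mean of 5.32 to 6.43, which include Alas2, Epor, Klf1 and Slc4a1, it was the highest for 70.7%. Of the 8 erythroid genes it was the lowest array for Tfrc, Hba-a1 and Car2 and the highest for Klf1, Alas2 and Slc4a1. Xist, which silences the inactive X of female cells, was high on HDAC7-deficient replicates 2 and 3 and wild-type replicate 3 (11.40, 11.27 and 8.51) and low on HDAC7-deficient replicate 1 and wild-type replicates 1 and 2 (4.87, 5.38 and 5.17). The division was set at the largest gap between ordered values, from 5.38 to 8.51. The gap from 8.51 to 11.27 was nearly as wide, so wild-type replicate 3 is intermediate and its class is the least sure. The labels give no sex for the mice. Hdac7 itself averaged 9.59 ± 0.34 in HDAC7-deficient and 8.62 ± 1.15 in wild-type cells (SD, n = 3 each), and since the deleted exons are not known here it does not check the labels. Pro-B markers were bright, with array medians of the 12 measured genes of 9.65 to 10.47 in HDAC7-deficient and 8.25 to 10.34 in wild-type samples.

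None of the 8 erythroid genes passed an adjusted p of 0.05 (limma, adjusted over all 17097 genes), nor did any other gene, so percent called was 0% overall. At an unadjusted p of 0.05, 1 of the 8 passed (Car2), against 12.7% of all genes. The 3 HDAC7-deficient arrays lay above the 3 wild-type arrays for Car2 and Tfrc, 2 of 8 genes, where 9.45% of all genes did so; for none of the 8 did they lie below, against 16.8% of all genes. By the fitted change 5 of the 8 were higher in HDAC7-deficient cells, against 48.0% of all genes. These shares are taken over genes of every brightness and are not a like background for the 8 genes. All genes with a mean above 7.92, as for Tfrc, Hba-a1 and Car2, had a median change of 0.56, or 0.06 without wild-type replicate 3. Those with means of 5.32 to 6.43, as for Alas2, Epor, Klf1 and Slc4a1, had -0.38, or -0.18. The median log2 change (HDAC7 deficient minus wild type) was 0.11 over the 8 genes and -0.03 over all genes. Leaving out wild-type replicate 3, the medians were 0.22 and -0.05. The samples are described as biological replicates, and an exact permutation test of 3 against 3 could not give a p below 0.1.

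**Figure D1:**
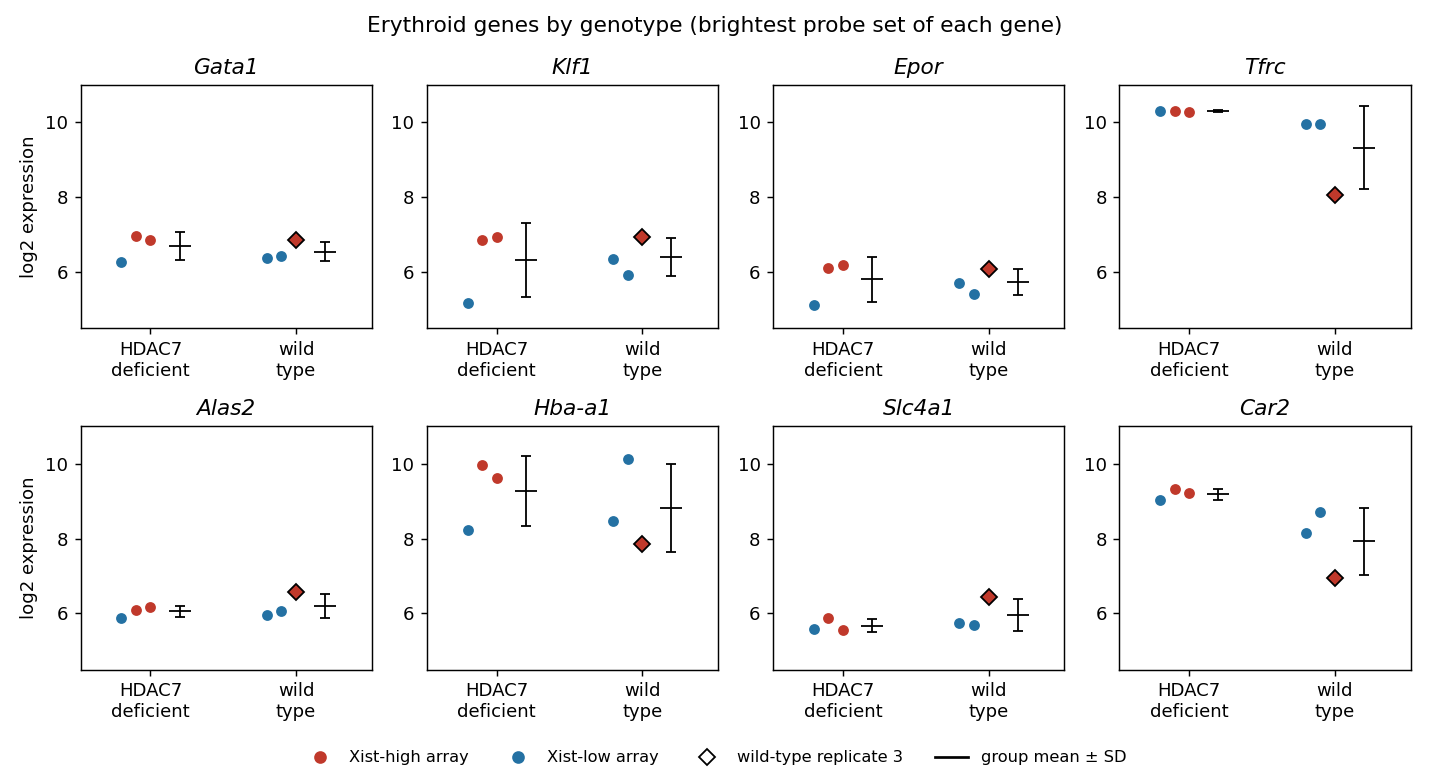
Log2 expression of the brightest probe set of each of the 8 genes on every array, HDAC7 deficient left and wild type right, with group mean ± SD (n = 3 each), red for arrays with high Xist, blue for low, and a diamond for wild-type replicate 3. Only Tfrc and Car2 show HDAC7-deficient arrays that all lie above the wild-type ones; Klf1, Gata1 and Epor separate by colour.

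Gata1, the founding transcription factor of the erythroid programme, had 6.27, 6.96 and 6.87 (log2) on HDAC7-deficient replicates 1, 2 and 3, against 6.37, 6.43 and 6.85 on wild-type replicates 1, 2 and 3. The groups overlapped, and replicate 1 was the lowest of the HDAC7-deficient arrays. Its change was 0.15 ± 0.28 (SE) with a limma adjusted p of 0.711. Klf1, which activates adult beta globin and many red cell genes, had 5.18, 6.87 and 6.94 in HDAC7-deficient cells and 6.35, 5.93 and 6.94 in wild-type cells. Its HDAC7-deficient values spanned both the lowest and nearly the highest of the 6 arrays. The difference of -0.08 ± 0.52 (limma adjusted p = 0.925) was far smaller than the spread between replicates, and it turned to 0.19 without wild-type replicate 3.

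Epor, the receptor for erythropoietin, had 5.12, 6.12 and 6.20 in HDAC7-deficient cells and 5.70, 5.42 and 6.09 in wild-type cells. As for Klf1, HDAC7-deficient replicate 1 was the lowest array and replicates 2 and 3 lay together above it. The change was 0.07 ± 0.34 (limma adjusted p = 0.893), and without wild-type replicate 3 it was 0.25.

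Tfrc, which brings transferrin iron into the cell, had 10.31, 10.31 and 10.27 in HDAC7-deficient cells, against 9.97, 9.95 and 8.05 in wild-type cells. The groups did not overlap, and wild-type replicate 3 was far below the rest. The change was 0.97 ± 0.55 (limma adjusted p = 0.388). Without wild-type replicate 3 it was 0.33 ± 0.11 (limma adjusted p = 0.287). Its other probe sets ran the same way. The second had 9.84, 10.19 and 10.07 in HDAC7-deficient cells against 9.23, 9.63 and 4.87 in wild-type cells, a change of 2.13, or 0.605 without wild-type replicate 3. The third had 9.54, 9.59 and 9.42 in HDAC7-deficient cells against 8.76, 9.14 and 6.32 in wild-type cells, a change of 1.44, or 0.56 without that array. On all 3 probe sets of Tfrc the HDAC7-deficient arrays lay above the wild-type arrays, with changes of 0.97 to 2.13; adjusted p-values over all probe sets were 0.36 to 0.376 (limma).

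Alas2, the erythroid enzyme of the first heme step, had 5.88, 6.10 and 6.18 in HDAC7-deficient cells and 5.97, 6.06 and 6.57 in wild-type cells. It varied little, by 0.69 over the 6 arrays, and the groups overlapped. The change was -0.15 ± 0.23 (limma adjusted p = 0.669), or 0.04 without wild-type replicate 3.

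Hba-a1, an adult alpha globin, had 8.22, 9.97 and 9.62 in HDAC7-deficient cells and 8.47, 10.12 and 7.86 in wild-type cells. HDAC7-deficient replicates 2 and 3 and wild-type replicate 2 formed an upper set and the other 3 arrays a lower one, with a gap of 1.16 between them. This division follows neither genotype nor Xist. Both further probe sets of Hba-a1 put the same 3 arrays on top, with gaps of 1.64 and 1.05. The change between genotypes was 0.46 ± 0.71 (limma adjusted p = 0.663), or -0.02 without wild-type replicate 3. The gene Hba-a2 encodes nearly the same chain, and the suffixes of these probe sets mark probes that can bind related transcripts, so signals of both alpha globin genes may be mixed.

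Beta globin moved over the arrays with alpha globin on its brighter probe sets. Hbb-b2 had 7.24, 8.95 and 8.59 in HDAC7-deficient cells and 7.37, 9.29 and 7.71 in wild-type cells on its brightest probe set. Another had 6.30, 7.13 and 7.36 in HDAC7-deficient cells and 6.45, 8.21 and 6.43 in wild-type cells. The dimmest was nearly flat, at 4.17, 4.18 and 4.13 against 4.02, 4.58 and 3.91, a range of 0.67. Leaving out the other members and clone-type symbols, Hbb-b2 on its brightest probe set was the gene nearest to Hba-a1 by pattern. The root mean square difference was 0.322 (log2) over the 6 arrays once each gene was centred on its own mean. The next was Lgals3bp, at 0.368. The single probe set named Hba-a2 did not follow: it had 11.35, 11.13 and 11.02 in HDAC7-deficient cells and 11.08, 11.34 and 10.33 in wild-type cells. Embryonic globins stayed dim, with Hbb-y at 5.27 to 5.56 in HDAC7-deficient and 5.43 to 6.16 in wild-type cells, and Hbb-bh1 and Hba-x between 4.35 and 5.04 on all arrays.

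**Figure D2:**
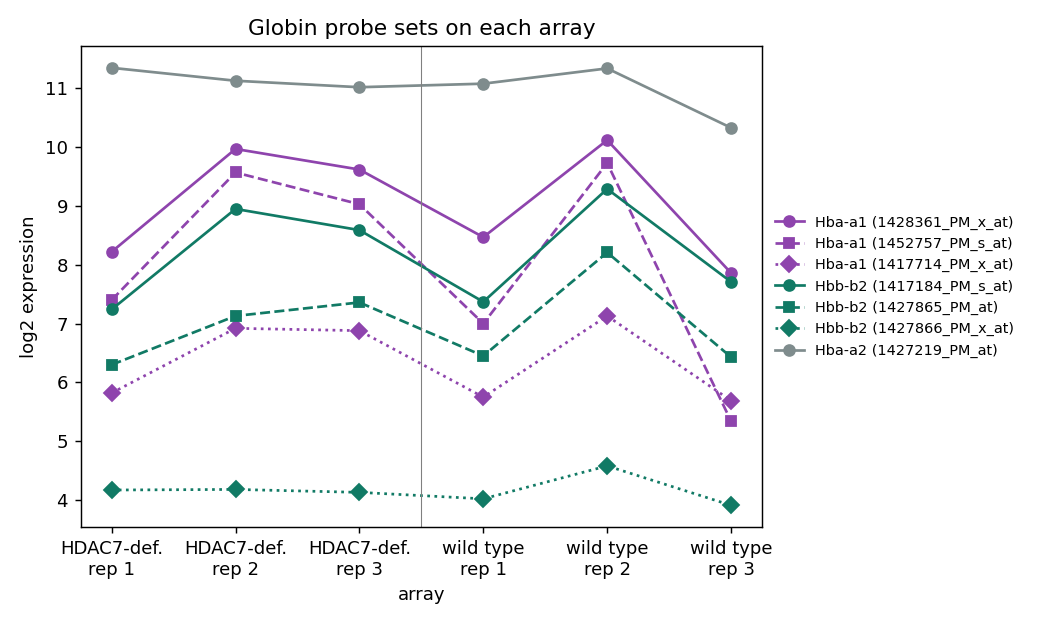
Log2 expression of every probe set named Hba-a1, Hbb-b2 or Hba-a2 on each array, HDAC7-deficient arrays left of the line and wild-type arrays right of it. All 3 Hba-a1 probe sets are high on HDAC7-deficient replicates 2 and 3 and wild-type replicate 2, the brightest with 9.97, 9.62 and 10.12, while Hba-a2 lies between 10.33 and 11.35 on every array.

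Slc4a1, which encodes band 3, the chloride and bicarbonate exchanger of the red cell membrane, had 5.59, 5.88 and 5.55 in HDAC7-deficient cells and 5.74, 5.69 and 6.44 in wild-type cells. Wild-type replicate 3 was the highest array and the other 5 lay between 5.55 and 5.88. The change was -0.28 ± 0.25 (limma adjusted p = 0.486), or -0.04 without that array. Its second probe set had 4.98, 5.26 and 5.68 in HDAC7-deficient cells against 5.71, 5.51 and 6.43 in wild-type cells, a change of -0.58, or -0.31 without wild-type replicate 3, with overlapping groups.

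Car2, carbonic anhydrase II, had 9.02, 9.31 and 9.21 in HDAC7-deficient cells, against 8.14, 8.70 and 6.95 in wild-type cells. Every HDAC7-deficient array lay above every wild-type array. The change of 1.25 ± 0.47 had an unadjusted p of 0.034 and a limma adjusted p of 0.377. Without wild-type replicate 3 it was 0.76 ± 0.22 (limma adjusted p = 0.245). Within the Xist-low arrays it was 0.60, and within the Xist-high arrays, where wild-type replicate 3 is the single wild-type array, it was 2.31. A limma interaction of genotype and Xist class passed for 27.3% of all genes, and for Tfrc, Hba-a1 and Car2 among the 8; it rests on 1 array in an arm of each class and does not separate the classes from those arrays. The genes closest to Car2 by pattern were Atp8a1 and Tnrc6b, at 0.045 and 0.0724, and those closest to Tfrc were Degs1 and Lmo2, at 0.0516 and 0.0538. Gata1 lay nearest to Dusp9 and Slc6a8 (0.0766 and 0.083) and Alas2 to Efnb1 and Plpp4 (0.04 and 0.0406); small differences are easier to reach for genes that vary little.

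**Figure D3:**
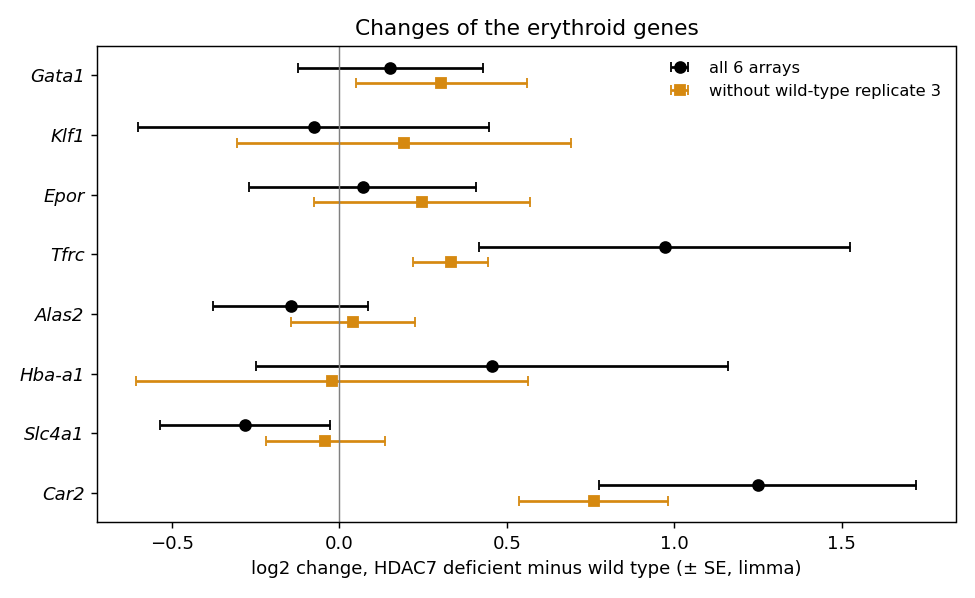
Log2 change of each gene, HDAC7 deficient minus wild type, with its limma standard error, from all 6 arrays (black circles) and without wild-type replicate 3 (orange squares). Without that array Car2 has 0.76 in place of 1.25 and Tfrc 0.33 in place of 0.97, and Klf1, Alas2 and Hba-a1 change sign.

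Some of the 8 genes ran close together over the arrays. Tfrc and Car2 differed by a root mean square of 0.28 once centred, Alas2 and Slc4a1 by 0.16, and Gata1 and Epor by 0.18, with Klf1 at 0.26 from Epor. Hba-a1 was at least 0.68 from every other member.

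Gata1, Klf1, Epor and Alas2 separated the arrays by Xist class and not by genotype. Gata1 and Alas2 lie on the X chromosome, Klf1 and Epor on chromosomes 8 and 9. Klf1 was 6.87, 6.94 and 6.94 on the Xist-high arrays (HDAC7-deficient replicates 2 and 3 and wild-type replicate 3), against 5.18, 6.35 and 5.93 on the Xist-low arrays (HDAC7-deficient replicate 1 and wild-type replicates 1 and 2). Gata1, Epor and Alas2 likewise did not overlap between the classes, so that 4 of 8 genes were higher on all Xist-high arrays, where 4.11% of all genes were. This comparison was added after the data were seen. Klf1, Epor and Alas2 have means of 5.32 to 6.43, where wild-type replicate 3 was the highest array for 70.7% of genes. The share over all genes is therefore not a like background for them. HDAC7-deficient replicate 1 was the lowest array for all 4 genes. In a limma fit with genotype and Xist class together, the class term was 1.27 ± 0.28 for Klf1, 0.79 ± 0.20 for Epor, 0.55 ± 0.20 for Gata1 and 0.41 ± 0.18 for Alas2. Adjusted p-values were 0.211 to 0.212 (limma), and no gene of 17097 passed (0%), although 23.4% had an unadjusted p under 0.05.

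Wild-type replicate 3 reads dim genes high, so the class term was also fitted without it. It then compares HDAC7-deficient replicates 2 and 3 with the single array of replicate 1, which is assumed to vary like the others. Its standard errors have no replicate check on that side, so p-values are not given. On this footing Klf1 had 1.73 ± 0.30, Epor 1.04 ± 0.26, Gata1 0.64 ± 0.29 and Alas2 0.25 ± 0.27.

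The wider red cell lists mostly did not separate by Xist class. All Xist-high arrays were higher for 5 of 13 genes of the red cell membrane and skeleton, 2 of 12 heme genes and 1 of 12 carbonic anhydrases, against 4.11% of all genes. That share is taken over genes of every brightness and is not matched to these lists. They were higher for 0 of 11 erythroid transcription factors, 0 of 5 globins, 0 of 8 iron genes and 0 of 8 genes of erythropoietin signalling. Median class terms were 0.38 for the membrane list, -0.22 for the transcription factors, -0.36 for heme and -0.73 for erythropoietin signalling, against 0.06 over all genes. Without wild-type replicate 3 these medians were 0.50, 0.18, -0.002 and -0.11, against 0.025 over all genes. On the remaining Xist-high arrays 5 of 11 transcription factors were then higher and 2 lower. Of 12 heme genes 4 were higher and 0 lower. Over all 17097 genes 2068 were higher and 2337 lower.
The following genes were picked after their values were seen and are given as values only. Aqp1, the water channel of the red cell membrane, had 8.35, 7.90 and 6.65 on the Xist-high arrays, against 5.19, 6.08 and 5.91 on the Xist-low arrays. Car1, the carbonic anhydrase that is abundant in red cells, had 7.80, 7.75 and 7.07 against 5.19, 5.66 and 5.32, and Rhd, of the Rhesus complex, had 6.98, 6.65 and 6.18 against 5.50, 5.84 and 5.66. Ermap, an erythroid membrane protein, had 8.57, 8.41 and 7.21 on the Xist-high arrays and 6.03, 7.21 and 6.63 on the Xist-low arrays, where the classes overlapped.

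**Figure D4:**
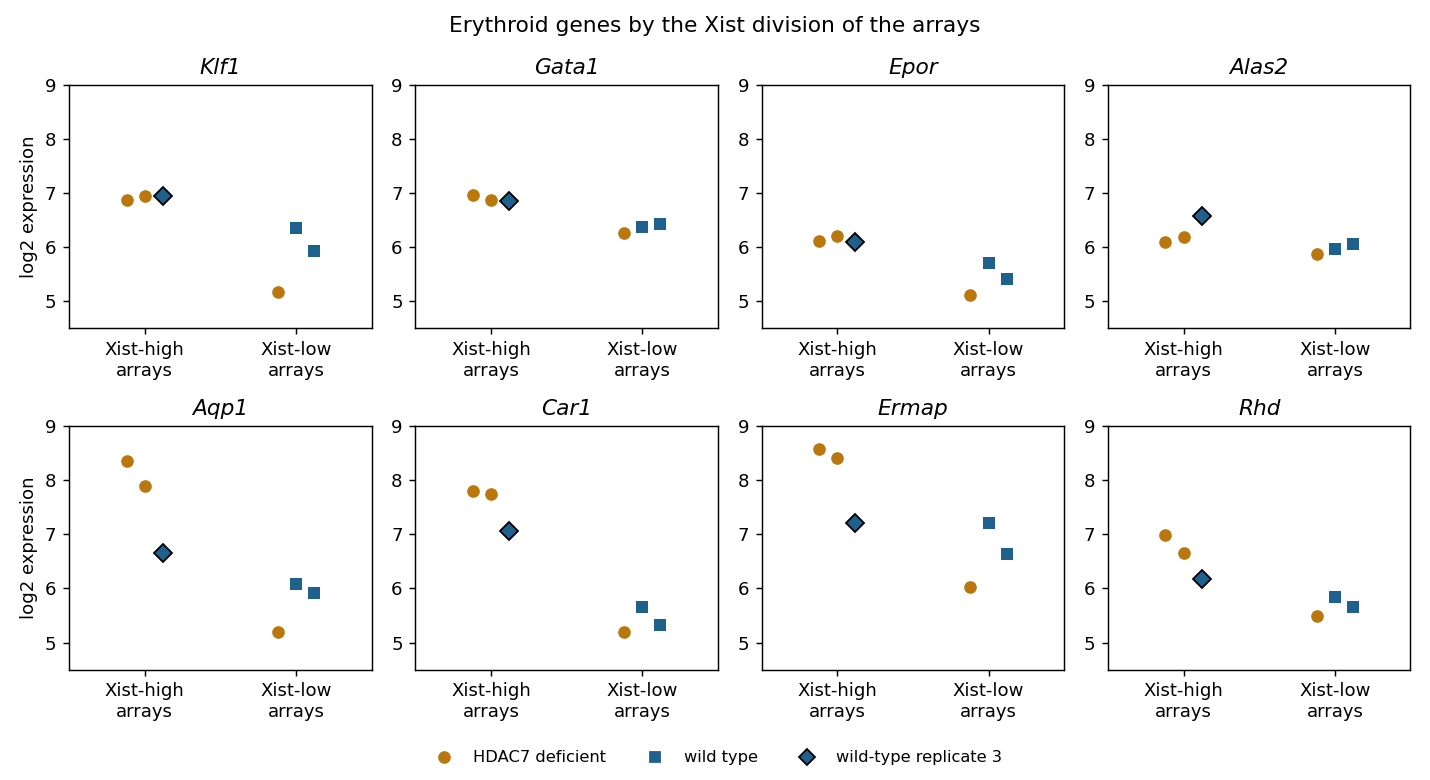
Log2 expression on each array of 4 of the 8 genes (top) and of 4 further red cell genes chosen after their values were seen (bottom), Xist-high arrays left and Xist-low arrays right, orange for HDAC7 deficient and blue for wild type. Klf1 lies at 6.87 to 6.94 on the Xist-high arrays and at 5.18 to 6.35 on the Xist-low ones, with HDAC7-deficient arrays in both classes.

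Several marker lists differed along the same division. Of 12 measured pro-B markers 7 were lower on all Xist-high arrays and none higher, where 7.18% of all genes were lower. Their median class term was -1.07, or -0.73 without wild-type replicate 3. Rag1, a subunit of the recombinase, named after its values were seen, had 8.38, 8.14 and 7.59 on the Xist-high arrays against 10.14, 9.20 and 9.09 on the Xist-low arrays. All 12 pro-B markers, and all 11 proliferation genes counted next, lie above the median brightness, where wild-type replicate 3 mostly reads low. The share over all genes is therefore not a like background for these 2 lists. Of 11 measured proliferation genes 9 were lower on all Xist-high arrays and none higher, with a median class term of -1.09, or -0.40 without wild-type replicate 3. Array medians of that list were 9.80 to 10.44 in HDAC7-deficient and 8.38 to 10.32 in wild-type cells, and 10 of the 11 were higher in HDAC7-deficient cells, or 1 without wild-type replicate 3. Without that array the median change of the list was -0.21, and that of Tfrc, carried by dividing cells, was 0.33. A link between Tfrc and these genes was not tested. Neutrophil genes were split, with 3 of 9 higher and 1 lower on all Xist-high arrays. All 9 also lie above the median brightness. Their median class term was -0.64, or 0.44 without wild-type replicate 3. Without that array 5 of the 9 were higher and 1 lower on the remaining Xist-high arrays. Their array medians were 10.74 to 11.52 in HDAC7-deficient and 8.97 to 10.95 in wild-type cells. Of 9 megakaryocyte genes 2 were higher and 1 lower on all Xist-high arrays, with array medians of 4.81 to 5.30 in HDAC7-deficient and 5.11 to 5.91 in wild-type cells. Of 12 macrophage genes 2 were higher and none lower, with medians of 5.61 to 6.27 over all arrays. Between genotypes, 9 of 12 pro-B, 7 of 9 neutrophil, 3 of 9 megakaryocyte and 6 of 12 macrophage genes were higher in HDAC7-deficient cells. None passed, and 48.0% of all genes were higher. Without wild-type replicate 3 these counts were 3, 5, 4 and 7, against 43.2% of all genes. The median change of the pro-B list was 0.18, or -0.23 without that array. The part of these cell types in the values of the erythroid genes was not tested. In such bulk samples a change in the number of cells of a type and a change of RNA per cell cannot be told apart, and sex, hybridisation and any other difference that follows the Xist division cannot be told apart either.

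The wider red cell pathway gave no gene past the threshold between genotypes in any of 7 further lists (limma adjusted p), and 0% of all genes passed. Of 11 measured erythroid transcription factors 8 were higher in HDAC7-deficient cells, with a median change of 0.45, or 0.27 without wild-type replicate 3. Tal1, a partner of GATA1, had 5.42, 5.57 and 5.39 in HDAC7-deficient cells against 5.10, 4.99 and 5.18 in wild-type cells, a change of 0.37 ± 0.15 (limma adjusted p = 0.377), which was 0.42 without wild-type replicate 3. Lmo2, which bridges TAL1 and GATA1, differed by 0.995 ± 0.56 and Nfe2, a globin activator, by 0.97 ± 0.48, or 0.34 and 0.44 without that array. Sox6, a repressor of embryonic globin, differed by -0.49 ± 0.23, or -0.28 without wild-type replicate 3.

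Of 12 measured genes of heme synthesis and transport 11 were higher in HDAC7-deficient cells (median 0.38), or 9 without wild-type replicate 3 (median 0.19). Slc25a38, the mitochondrial glycine carrier, had 6.41, 6.70 and 6.18 against 5.75, 6.14 and 5.56 in wild-type cells, a change of 0.61 ± 0.24 (limma adjusted p = 0.377). Ppox, the enzyme that makes protoporphyrin, differed by 1.26 ± 0.53, or 0.68 without wild-type replicate 3, and Cpox, the enzyme before it, by 0.73 ± 0.40, or 0.36. Fech, which inserts the iron, differed by 0.365 ± 0.285, or 0.25. Of these 12 genes 11 lie above the median brightness, where the changes of all genes had medians of 0.25 (means of 6.43 to 7.92) and 0.56 (means above 7.92), or 0.08 and 0.06 without wild-type replicate 3.

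Of 8 measured genes of iron uptake and storage 6 were higher, with a median of 0.24, or 0.045 without wild-type replicate 3. Aco1, the iron regulatory protein that stabilises Tfrc mRNA when iron is short, differed by 0.64 ± 0.29, or 0.39 without that array. Ftl1, the ferritin light chain, differed by 1.39 ± 0.93, or 0.22. The iron exporter Slc40a1 and the iron chaperone gene Pcbp1 differed by 0.40 ± 0.29 and 0.27 ± 0.36, or 0.51 and -0.05 without it. Of 8 measured genes of erythropoietin signalling 7 were higher (median 0.65, or 0.16 without wild-type replicate 3). Pim1, a kinase gene induced by STAT5, differed by 0.58 ± 0.29, or 0.60, the feedback inhibitor Socs3 by 0.30 ± 0.16, or 0.33, the kinase Jak2 by 0.72 ± 0.46, or 0.28, and Bcl2l1, which encodes the survival factor BCL-XL, by 1.305 ± 0.94, or 0.17. Of the iron genes 5 of 8 and of the erythropoietin signalling genes 6 of 8 lie above the median brightness, as do 7 of the 11 transcription factors.

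Genes of the red cell membrane and skeleton lay on both sides, 8 of 13 higher with a median of 0.04 (0.14 without wild-type replicate 3). Sptb, the beta spectrin of red cells, differed by -0.32 ± 0.18, Dmtn, which bundles actin, by -0.33 ± 0.21, Epb42, a partner of band 3, by -0.81 ± 0.49 and the glycophorin gene Gypc by 0.45 ± 0.32. Without wild-type replicate 3 these 4 changes were -0.36, -0.22, -0.29 and 0.24. Of 5 measured globin genes other than Hba-a1, 2 were higher (median -0.175), or 0 without wild-type replicate 3 (median -0.065). Hba-x differed by -0.28 ± 0.14, Hbb-y by -0.33 ± 0.23, Hbb-bh1 by -0.175 ± 0.20 and Hba-a2 by 0.25 ± 0.35. Without that array they differed by -0.20, -0.12, -0.005 and -0.04. Carbonic anhydrases other than Car2 ran mostly the other way from it, with 10 of 12 lower in HDAC7-deficient cells and a median of -0.27 (-0.13 without wild-type replicate 3). Of these 12 genes 7 lie below the median brightness, where all genes had median changes of -0.30 (means under 5.32) and -0.38 (means of 5.32 to 6.43). Car12 had 5.60, 5.61 and 5.58 in HDAC7-deficient cells against 6.51, 6.04 and 6.69 in wild-type cells, a change of -0.82 ± 0.22 (limma adjusted p = 0.377), or -0.68 without wild-type replicate 3. Car11 differed by -0.55 ± 0.22, Car6 by -0.71 ± 0.29 and Car8 by -1.11 ± 0.57, or -0.35, -0.42 and -0.50 without it.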

How the data were processed

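Amplified RNA was hybridised to Affymetrix mouse perfect-match arrays, per the labels' protocols. The authors deposited a matrix of log2 values, 1 for each probe set on each array. Their normalization is not given in the sources used here; a range of 3.23 to 12.9 shows the scale. Control probe sets (104 of 45141) were set aside. Of the rest, 28898 carried 1 symbol in the platform annotation, 551 several and 15588 none. Each gene was read from its brightest probe set.

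Groups were compared with limma 3.58.1 (R 4.3.3): moderated variances with an intensity trend, two-sided, Benjamini-Hochberg over all 17097 genes, threshold 0.05, no filter on dim genes. The further probe sets come from the same fit over 45037 probe sets. All adjusted p-values are from limma. Changes are HDAC7 deficient minus wild type, ± SE. The number of arrays limits precision. The fit was tested on simulated data.

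The members, 7 pathway lists and 5 marker lists were chosen with earlier results of these data known. All members were named, with up to 4 genes per pathway list by smallest p. For members above the array median on all arrays, the 2 nearest genes by pattern were named, leaving out members and clone-type symbols. Of the marker lists, counts and array medians are given. Genes outside the rule are marked as picked after their values were seen. Xist class terms were added after the data were seen. Alternatives were leaving out each array, blocks, other normalizations, filters, variance models, array weights and probe set averages. Promoter windows are RefSeq's (GRCm38.p6). Figures were drawn with matplotlib 3.10.9.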

Additional observations from a re-analysis of the deposited data

Results flagged for a closer look

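A limma interaction term of genotype and Xist class marked 3 of the 8 genes, as it did 27.3% of all genes. It rests on wild-type replicate 3, the single wild-type array of the Xist-high class, and HDAC7-deficient replicate 1, the single HDAC7-deficient array of the Xist-low class, so a difference between classes cannot be told apart from these single arrays. For Tfrc the change was 2.24 in the Xist-high class and 0.345 in the Xist-low class, an interaction of 1.90 (limma adjusted p = 2.01e-05). For Hba-a1 it was 1.93 and -1.07, an interaction of 3.01 (limma adjusted p = 0.004). For Car2 it was 2.31 and 0.60, an interaction of 1.71 (limma adjusted p = 0.00682). These are the 3 genes with a mean above 7.92, where wild-type replicate 3 was the lowest array for 85% of all genes.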

How the results depend on the processing

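Over 16 other settings the 8 changes gave 124 values, of which 104 kept direction and side of the threshold and 17 changed sign; Tfrc and Car2 stayed positive in each, at 0.333 to 1.513 and 0.602 to 1.636. With the Xist class as a block Gata1 was -0.031 and Epor -0.192; without wild-type replicate 3 as well, Gata1 was -0.124, Epor -0.449 and Hba-a1 -1.073, and 4 genes and 2 probe sets passed (Fos, Fosb, Jun and H1f2, named after their values were seen). Without wild-type replicate 3, the Xist block compared HDAC7-deficient replicate 1 alone with wild-type replicates 1 and 2, all Xist low. The changes in that setting, and the genes and probe sets that passed, have no replicate check on the HDAC7-deficient side. Klf1 was 0.059 after centring arrays and Hba-a1 -0.014 after quantile normalization. Leaving out 1 array at a time, Klf1 ran from -0.382 to 0.5, Epor from -0.123 to 0.417, Alas2 from -0.263 to 0.04 and Hba-a1 from -0.021 to 1.108, and no gene or probe set passed. Gene-by-gene array weights gave wild-type replicates 1, 2 and 3 weights of 8.68, 0.471 and 0.0716. The wild-type side thus rested mostly on replicate 1, with little replicate check. With these weights 8449 of 17097 genes and 19934 of 45037 probe sets passed. Among them were Gata1 (0.475, limma adjusted p = 0.0214), Hba-a1 (1.125, 0.0198) and Car2 (1.093, 0.000642), while Klf1 was 0.314, Alas2 0.105 and Slc4a1 0.041. The default weights did not converge and were not used. With the replicate block 1 gene passed (Hspa1b) and none of the 8, Car2 having a limma adjusted p of 0.22. To look for pairing, each array was taken as its deviation from its own group mean over all probe sets. These deviations correlated at 0.079, 0.18 and 0.454 between same-numbered samples. The deviations of HDAC7-deficient replicates 2 and 3 correlated best with those of the same-numbered wild-type sample. Those of HDAC7-deficient replicate 1 correlated best with those of wild-type replicate 2 (0.353). The labels state no pairing, and the numbers were not taken as pairs in the main fit. The causes were not tested.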
